A study of Mus musculus with 35 samples.

Results

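*Ptprv*, *Ppp4r4*, *Inpp5j*, *Pdp1*, *Fibcd1* and *Cd200* are 6 of the 39109 rows of a count table of mouse striatal RNA, and were taken as genes that an expanded *Htt* allele and the loss of *Hdac2* move in the same direction. They were selected on these same libraries, by their fold changes in 2 comparisons: the *Htt* Q111 allele in *Hdac2* WT mice, and *Hdac2* loss in mice that carry the allele. Both comparisons, and those that share libraries with them, are therefore given for these genes as a description, without p values. As a group they were thought to be moved further by *Hdac2* loss in *Htt* Q111/+ mice. By the fitted log2 fold changes with *Hdac2* loss in *Htt* Q111/+ mice, all 6 had the chosen direction. The weakest was −0.11 (95% interval −0.20 to −0.01) in *Ppp4r4*. Plain differences of the group means were smaller in each gene. Those means differed by more than 1 SD between mice in *Ptprv* and *Fibcd1*, and by less than that in *Cd200*, *Pdp1*, *Inpp5j* and *Ppp4r4*. That SD describes the spread of single mice and is no test of a shift in means.

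Medium-spiny neurons (MSNs) are the main neurons of the striatum and the cells most affected in Huntington disease, in which a CAG repeat in the *Htt* gene is expanded and striatal gene expression changes early. HDAC2 is a histone deacetylase of the nucleus that works in corepressor complexes, often beside its close relative HDAC1. Of the 6 genes, *Ptprv*, *Ppp4r4*, *Inpp5j* and *Pdp1* belong to families of phosphatases or their subunits, which act on proteins or on membrane lipids, while *Fibcd1* and *Cd200* encode proteins of the cell surface.

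RNA was taken from the striata of 35 mice between 21.7 and 23.0 weeks of age, with 1 library per mouse. *Htt*+/+ *Hdac2* WT mice (n = 8) have 2 ordinary *Htt* alleles and no Cre, *Htt* Q111/+ *Hdac2* WT mice (n = 7) carry 1 knock-in allele with 110 to 140 CAG repeats and no Cre, *Htt*+/+ *Hdac2* KO mice (n = 9) lack *Hdac2* in MSNs, and *Htt* Q111/+ *Hdac2* KO mice (n = 11), called double mutants here, combine that loss with an allele of 110 to 144 repeats. The KO mice carry floxed *Hdac2* and a Cre transgene under a *Ppp1r1b* promoter, which acts in MSNs after the first weeks of life, so that other striatal cells keep *Hdac2*. All WT mice carried floxed *Hdac2* without Cre, 2 of the *Htt*+/+ mice on 1 allele alone, and no WT mouse carried Cre, so an effect of Cre and one of the deletion cannot be told apart. The mice were of a mixed C57BL/6 and 129 background and came from ID series named A, V and Z. Libraries held 50970712 to 77867348 counts on genes, with a median of 57322618. Extraction took 6 days, and most days held mice of 1 *Hdac2* genotype only.

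*Hdac2* was read first as a check of the labels. It had 97.6 to 107 CPM (counts-per-million, with libraries scaled to one another) with a median of 104 in *Htt*+/+ *Hdac2* WT, and 95.5 to 111 with a median of 105 in *Htt* Q111/+ *Hdac2* WT mice. It had 89.4 to 99.2 with a median of 94.4 in *Htt*+/+ *Hdac2* KO, and 89.8 to 101 with a median of 95.5 in double mutants. The KO libraries lay lower on average, and their range overlapped that of the WT libraries. Cre removes a few internal exons, and the counts cover the whole gene and all striatal cells, so this gene checks the labels only weakly. *Hdac1*, whose gene the Cre leaves intact, separated the genotypes without overlap, with 5.33 to 7.76 CPM over both WT groups and 8.37 to 11.03 CPM over both KO groups.

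*Ptprv* is named as a receptor-type protein tyrosine phosphatase gene, and of the 6 it had the largest fitted log2 fold change from wild type to double mutant (−1.50). The gene (ENSMUSG00000097993) lies on chromosome 1 of GRCm38 from 135108497 to 135132568 on the minus strand, and RefSeq lists it as a transcribed pseudogene. *Htt*+/+ *Hdac2* WT libraries had 33.7 to 50.8 CPM with a median of 44.4 (mean 42.9 ± 6.24, SD, n = 8), and *Htt* Q111/+ *Hdac2* WT libraries had 19.0 to 44.1 with a median of 27.2 (28.3 ± 9.07, SD, n = 7). *Htt*+/+ *Hdac2* KO libraries had 14.4 to 36.9 CPM with a median of 19.0 (21.9 ± 6.68, SD, n = 9), and double mutants had 8.24 to 26.3 with a median of 16.1 (16.9 ± 5.35, SD, n = 11). Every double mutant lay below every wild-type mouse, 2 of 7 *Htt* Q111/+ *Hdac2* WT mice and 1 of 9 *Htt*+/+ *Hdac2* KO mice reached the wild-type range, and the 3 mutant groups overlapped one another widely. From wild type to double mutant 3627 of 17088 genes were called. The share of all genes that part without overlap is not given, here or for the genes below. In the order of mean levels, from double mutant through KO and *Htt* Q111/+ to wild type, the step up to wild type alone exceeded the pooled SD between mice.

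The fitted log2 fold change of *Ptprv* with *Hdac2* loss was −1.44 (SE 0.091, 95% interval −1.63 to −1.25) in *Htt*+/+ and −1.05 (SE 0.080, −1.21 to −0.89) in *Htt* Q111/+ mice. The allele gave −0.44 (SE 0.085, −0.62 to −0.27) in *Hdac2* WT and −0.06 (SE 0.070, −0.20 to 0.08) in *Hdac2* KO mice. These values come from a model with 9 surrogate variables, which stand for variation between mice. The variables are not free of the groups, which explained a share of 0.0230 to 0.351 of each. Plain differences of the group means of log2 CPM were −1.01 and −0.76 for *Hdac2* loss and −0.64 and −0.39 for the allele. The model therefore gives a larger effect of *Hdac2* loss and a smaller one of the allele than the measured means do.

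*Ptprv* shares its start region with a neighbour. *Ptpn7*, which encodes a tyrosine phosphatase of the cytosol, begins 0.157 kb from the start of *Ptprv* and runs the other way on the plus strand. Its log2 fold change with *Hdac2* loss was −1.60 (SE 0.14, Benjamini-Hochberg adjusted p = 1.46e-09 in edgeR's quasi-likelihood test) in *Htt*+/+ and −1.28 (SE 0.12, adjusted p = 9.72e-09) in *Htt* Q111/+ mice. With the allele it was −0.33 (SE 0.13, adjusted p = 0.330) in *Hdac2* WT and −0.02 (SE 0.11, adjusted p = 0.983) in *Hdac2* KO mice. The 2 genes thus fell together with *Hdac2* loss. On the other side, 3.22 kb away, *Lgr6* had values of 0.42 (SE 0.27, adjusted p = 0.330) and 0.42 (SE 0.24, adjusted p = 0.278) with *Hdac2* loss, which did not pass.

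*Ppp4r4* encodes a regulatory subunit of protein phosphatase 4, an enzyme that acts on serine and threonine residues. It lies on chromosome 12 from 103532565 to 103613832 on the plus strand (ENSMUSG00000021209). *Htt*+/+ *Hdac2* WT mice had 103 to 123 CPM with a median of 115 (114 ± 6.68, SD, n = 8), and *Htt* Q111/+ *Hdac2* WT mice had 78.1 to 107 with a median of 86.9 (92.0 ± 13.2, SD, n = 7). *Htt*+/+ *Hdac2* KO mice had 91.7 to 108 CPM with a median of 103 (102 ± 5.20, SD, n = 9), and double mutants had 78.4 to 104 with a median of 93.6 (91.8 ± 9.82, SD, n = 11). Both groups with the allele had the same mean, and all 11 double mutants lay within the range of the *Htt* Q111/+ *Hdac2* WT mice. KO mice without the allele stood between these and the wild type, more than 1 pooled SD from either.

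The fitted log2 fold change of *Ppp4r4* was −0.19 (SE 0.054) with *Hdac2* loss in *Htt*+/+ and −0.11 (SE 0.047) in *Htt* Q111/+ mice, and −0.23 (SE 0.050) with the allele in *Hdac2* WT and −0.15 (SE 0.040) in *Hdac2* KO mice. The plain difference of means with *Hdac2* loss in *Htt* Q111/+ mice was 0.00.

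*Inpp5j* encodes an enzyme that takes a phosphate from the inositol ring of phosphoinositides, lipids that carry signals at the membrane. It lies on chromosome 11 from 3494375 to 3504786 on the minus strand (ENSMUSG00000034570). *Htt*+/+ *Hdac2* WT mice had 70.2 to 111 CPM with a median of 84.2 (84.9 ± 13.9, SD, n = 8), and *Htt* Q111/+ *Hdac2* WT mice had 47.7 to 79.7 with a median of 67.8 (63.8 ± 11.5, SD, n = 7). *Htt*+/+ *Hdac2* KO mice had 60.9 to 91.7 CPM with a median of 70.2 (72.0 ± 10.3, SD, n = 9), and double mutants had 49.2 to 73.2 with a median of 59.2 (61.7 ± 8.65, SD, n = 11). All groups overlapped, and the double mutants lay wholly within the range of the *Htt* Q111/+ *Hdac2* WT mice. Of the steps in the order of the means, that from KO to wild type alone exceeded the pooled SD.

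For *Inpp5j* the fitted log2 fold change was −0.37 (SE 0.057) and −0.13 (SE 0.052) with *Hdac2* loss in *Htt*+/+ and *Htt* Q111/+ mice, against plain differences of −0.24 and −0.04. With the allele it was −0.30 (SE 0.055) in *Hdac2* WT and −0.07 (SE 0.044) in *Hdac2* KO mice, against plain differences of −0.42 and −0.22. *Pla2g3*, on the plus strand, shares 4976 nt with *Inpp5j*. It had 105 to 241 counts per library, while *Inpp5j* had at least 2732, and whether strand was used in the counting is not given in the sources used here. *Selm*, the next gene on the other side, had log2 fold changes of −0.35 (SE 0.054, adjusted p = 1.88e-05 by edgeR's quasi-likelihood test) and −0.19 (SE 0.047, adjusted p = 0.00403) with *Hdac2* loss, and −0.19 (SE 0.050, adjusted p = 0.104) with the allele in *Hdac2* WT mice.

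*Pdp1* encodes a mitochondrial phosphatase that switches on the pyruvate dehydrogenase complex, the entry of pyruvate into the citric acid cycle. It lies on chromosome 4 from 11958184 to 11966420 on the minus strand (ENSMUSG00000049225). *Htt*+/+ *Hdac2* WT mice had 244 to 379 CPM with a median of 283 (296 ± 49.0, SD, n = 8), and *Htt* Q111/+ *Hdac2* WT mice had 168 to 312 with a median of 199 (217 ± 51.4, SD, n = 7). *Htt*+/+ *Hdac2* KO mice had 155 to 261 CPM with a median of 189 (195 ± 33.3, SD, n = 9), and double mutants had 131 to 292 with a median of 192 (205 ± 58.5, SD, n = 11). The 3 mutant groups did not differ beyond their spread, and all overlapped the wild-type range. Double mutants spread most, since 3 of 11 lay in the wild-type range while others were the lowest of all 35 libraries.

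The fitted log2 fold change of *Pdp1* was −0.47 (SE 0.060) and −0.23 (SE 0.054) with *Hdac2* loss in *Htt*+/+ and *Htt* Q111/+ mice, against plain differences of −0.60 and −0.10. With the allele it was −0.29 (SE 0.057) in *Hdac2* WT and −0.03 (SE 0.046) in *Hdac2* KO mice, against plain differences of −0.47 and 0.03. *1700123M08Rik*, which begins 0.145 kb from the start of *Pdp1* on the plus strand, had values between −0.09 (SE 0.17) and −0.03 (SE 0.13) in these 4 comparisons.

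*Fibcd1* encodes a transmembrane receptor with a fibrinogen-like domain that binds acetylated sugars such as those of chitin. It lies on chromosome 2 from 31813290 to 31846005 on the minus strand (ENSMUSG00000026841). *Htt*+/+ *Hdac2* WT mice had 16.6 to 26.0 CPM with a median of 18.4 (20.5 ± 3.91, SD, n = 8), and *Htt* Q111/+ *Hdac2* WT mice had 13.6 to 21.5 with a median of 15.8 (17.3 ± 3.20, SD, n = 7). *Htt*+/+ *Hdac2* KO mice had 9.78 to 14.3 CPM with a median of 11.6 (11.5 ± 1.36, SD, n = 9), and double mutants had 9.84 to 14.6 with a median of 11.9 (11.9 ± 1.18, SD, n = 11). Every KO mouse of either *Htt* genotype lay below every wild-type mouse, and 1 library of each KO group reached the range of the *Htt* Q111/+ *Hdac2* WT mice. With *Hdac2* loss in *Htt*+/+ mice 17.8% of all genes were called. The 2 KO groups had the same level within their spread, while each further step, to *Htt* Q111/+ *Hdac2* WT and to wild type, exceeded the pooled SD.

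*Fibcd1* had a fitted log2 fold change of −0.98 (SE 0.059) and −0.54 (SE 0.051) with *Hdac2* loss in *Htt*+/+ and *Htt* Q111/+ mice, against plain differences of −0.82 and −0.53. With the allele it was −0.33 (SE 0.055) in *Hdac2* WT mice and 0.10 (SE 0.045, 95% interval 0.01 to 0.19) in *Hdac2* KO mice, against plain differences of −0.24 and 0.05. Among KO mice the plain difference with the allele was −0.09 in females and 0.16 in males. Neither neighbour, *Abl1* or *Lamc3*, passed in any of these 4 comparisons by edgeR's quasi-likelihood test, and the lowest of their adjusted p values was 0.230.

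*Cd200* encodes a glycoprotein on neurons that binds a receptor on microglia and restrains them, and alone of the 6 it rose. It lies on chromosome 16 from 45382135 to 45409018 on the minus strand (ENSMUSG00000022661). *Htt*+/+ *Hdac2* WT mice had 50.1 to 63.1 CPM with a median of 55.6 (56.3 ± 4.31, SD, n = 8), and *Htt* Q111/+ *Hdac2* WT mice had 60.7 to 76.2 with a median of 71.2 (69.2 ± 6.04, SD, n = 7). *Htt*+/+ *Hdac2* KO mice had 59.8 to 73.3 CPM with a median of 68.3 (67.2 ± 4.43, SD, n = 9), and double mutants had 65.5 to 88.1 with a median of 72.0 (73.7 ± 7.29, SD, n = 11). No double mutant overlapped the wild type, and each single mutant group met it with 1 or 2 mice. In the order of the means the step from wild type to KO exceeded the pooled SD, and the steps among the 3 mutant groups did not.

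The fitted log2 fold change of *Cd200* was 0.32 (SE 0.038) and 0.19 (SE 0.033) with *Hdac2* loss in *Htt*+/+ and *Htt* Q111/+ mice, against plain differences of 0.25 and 0.09. With the allele it was 0.21 (SE 0.036) in *Hdac2* WT and 0.08 (SE 0.028) in *Hdac2* KO mice, against plain differences of 0.30 and 0.13. *Cd200* varied least of the 6 between mice, with an SD of 0.12 on the log2 scale within groups against 0.41 in *Ptprv*.

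**Figure D1:**
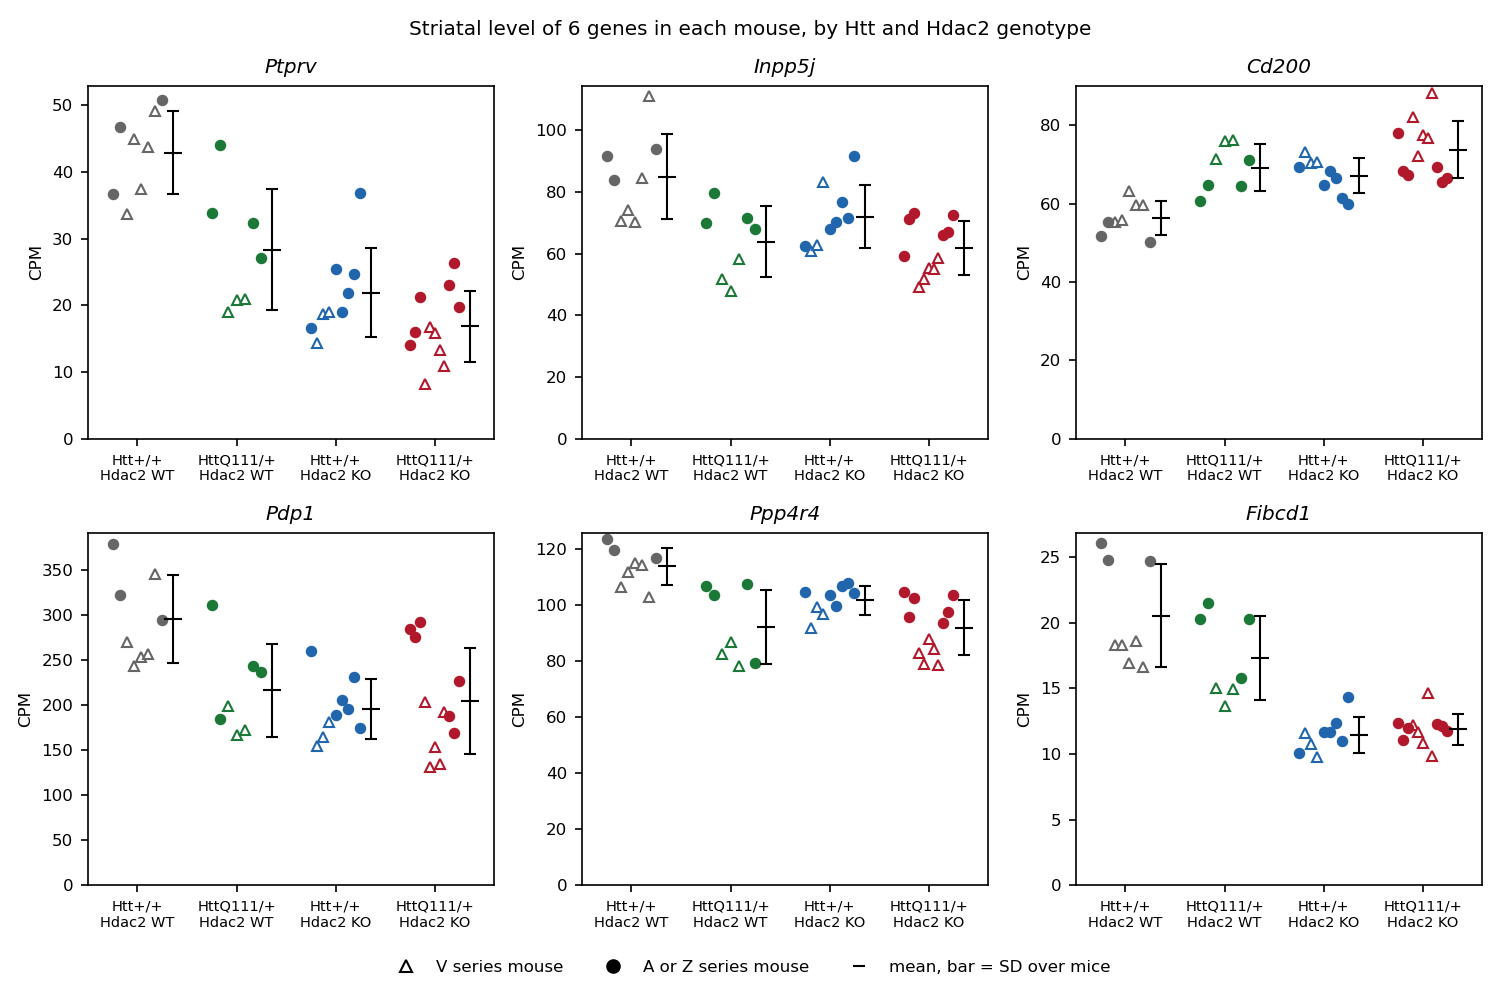
CPM of each of the 6 genes (vertical axes, linear and from 0) in each of 35 mice by genotype group (horizontal axes), with open triangles for mice of the V series, filled circles for the A and Z series, and the mean with SD beside each group. *Fibcd1* lies below 15 CPM in every KO mouse, and *Cd200* lies above the wild-type range in every double mutant. In each gene the double mutants overlap both single mutant groups. In *Fibcd1* they overlap the *Htt*+/+ *Hdac2* KO group widely and the *Htt* Q111/+ *Hdac2* WT group by 1 mouse of each.

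**Figure D2:**
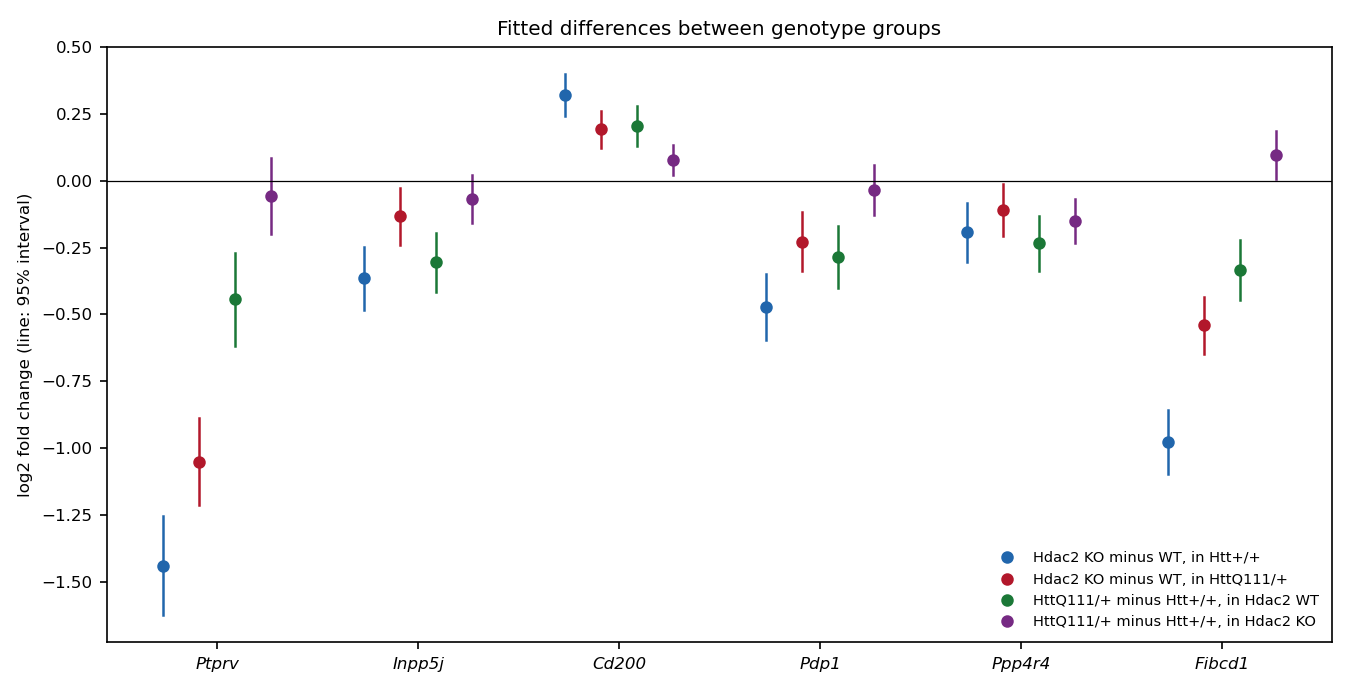
Fitted log2 fold changes (vertical axis) of the 6 genes (horizontal axis) in 4 comparisons between genotype groups, with 95% intervals as lines. The effect of the allele in *Hdac2* KO mice (purple) lies nearer 0 than that in *Hdac2* WT mice (green) for each gene, and for *Fibcd1* it lies above 0.

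Whether the 2 lesions added up was read on the log2 scale, where independent effects multiply, and on the CPM scale, where they sum. On the log2 scale the change from wild type to double mutant was 79.6% of the sum of both single changes in *Ptprv*, 80.1% in *Ppp4r4*, 75.7% in *Cd200*, 67.1% in *Pdp1*, 66.2% in *Fibcd1* and 65.5% in *Inpp5j*. The interaction, which is the effect of the allele in KO mice minus that in WT mice, was 0.43 (SE 0.069, 95% interval 0.29 to 0.57) in *Fibcd1*, 0.39 (SE 0.11, 0.17 to 0.61) in *Ptprv*, 0.25 (SE 0.072, 0.10 to 0.39) in *Pdp1* and 0.24 (SE 0.069, 0.10 to 0.38) in *Inpp5j*. It was −0.13 (SE 0.044, −0.22 to −0.04) in *Cd200*, whose single effects are positive, and 0.08 (SE 0.063, −0.05 to 0.21) in *Ppp4r4*, where the interval holds 0. In each gene the sign means a double mutant less changed than the single effects would sum to. The interaction contains, with its sign turned, the effect of the allele that chose these genes, and, with its own sign, the effect of *Hdac2* loss in *Htt* Q111/+ mice that also chose them. Choice on the first shifts it one way and choice on the second the other way, the balance was not tested, and no p value is given for it. Of the 6 genes *Fibcd1* was called in it, beside 0.00577% of all genes, and nothing is read from that count.

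Measured group means, without the surrogate variables, gave the same direction in each gene but other sizes. On the log2 scale the interaction from plain means was 0.50 in *Pdp1*, 0.29 in *Fibcd1*, 0.25 in *Ptprv*, 0.19 in *Inpp5j*, 0.16 in *Ppp4r4* and −0.16 in *Cd200*. With a block by replicate number in place of the surrogate variables it was 0.015 in *Ptprv* and 0.084 in *Inpp5j*. For *Pdp1* the sum of both single changes would leave 116 CPM, and double mutants had 88.6 CPM more (SE 33.3). *Ptprv* would be left with 7.29 CPM by the sum, or 13.5 by the product of the relative changes, and the double mutants exceeded the sum by 9.58 CPM (SE 4.92). *Fibcd1* would be left with 8.29 CPM by the sum and 9.69 by the product, and all 11 double mutants lay above both values. The excess over the sum was 3.59 CPM (SE 1.93) in *Fibcd1*, 11.9 CPM (SE 6.51) in *Ppp4r4* and 10.9 CPM (SE 7.86) in *Inpp5j*, and *Cd200* fell short of it by 6.29 CPM (SE 3.82). These differences rest in part on the comparisons that chose the genes and are a description.

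**Figure D3:**
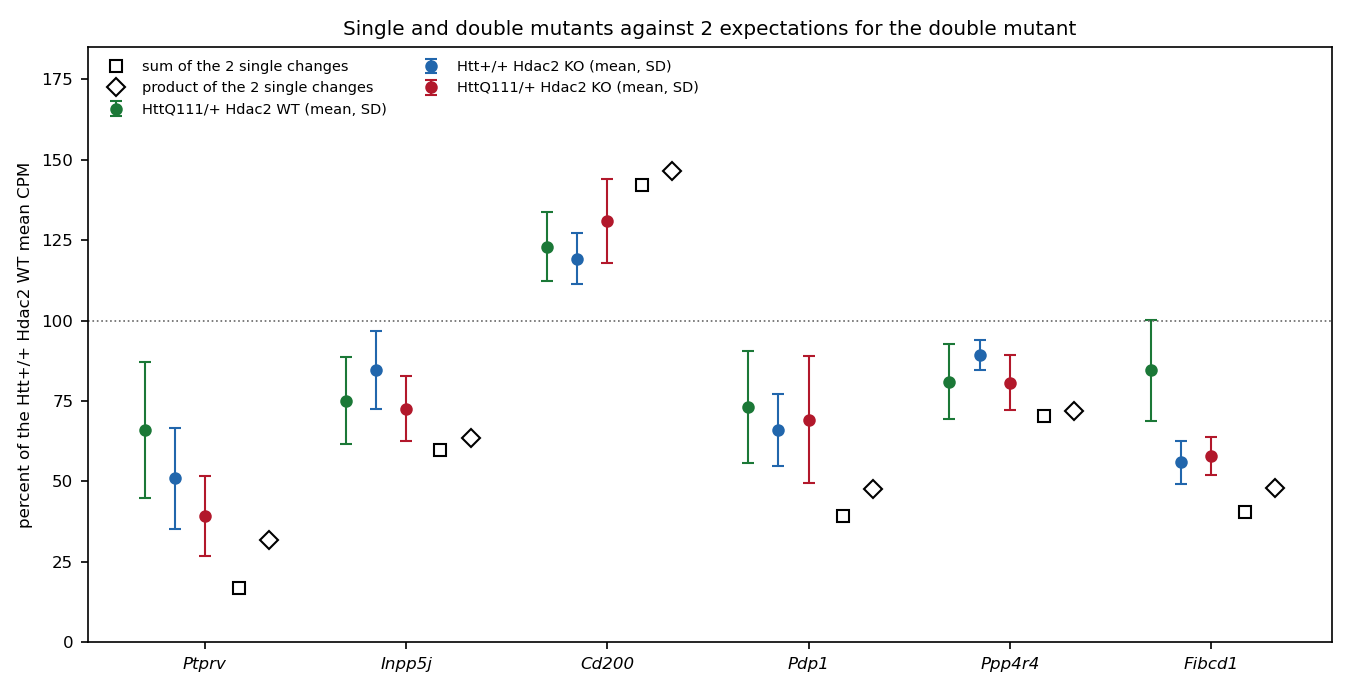
Mean CPM of the single and double mutants as a percent of the wild-type mean (vertical axis, dotted line at 100), with SD over mice as bars, for the 6 genes (horizontal axis). Open squares and diamonds mark the double mutant expected from the sum and from the product of both single changes, and in each gene the double mutant mean lies between these marks and the wild type.

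A floor in the counting was not reached by any of the 6. The lowest library of *Ptprv*, a double mutant, had 482 counts (8.24 CPM, 19.2% of the wild-type mean), 80.3 times the minimum of 6 counts used to keep a gene. Its counting error is 4.55%, against a spread of 31.7% between double mutants. *Fibcd1* had at least 567 counts, and the lowest counts of *Cd200*, *Inpp5j*, *Ppp4r4* and *Pdp1* were 2568, 2732, 3969 and 7367. Depth therefore did not limit how low these genes could be read. *Fibcd1* stood at 55.9% of the wild-type mean in KO mice and at 57.9% in double mutants. *Ptprv* stood at 50.96% in KO mice and at 39.3% in double mutants, a step that did not exceed the pooled SD either. These counts hold RNA of all striatal cells, so a remaining level in MSNs and a level in other cells cannot be told apart.

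Because dates of extraction nearly follow *Hdac2* genotype, the effect of its loss can be read within a day from few mice. Among the *Htt* Q111/+ mice of 25 May, 1 KO library differed from the mean of 2 WT libraries, 1 of them the library with many cortical or hippocampal marker counts described further on, by −0.76 in log2 CPM in *Ptprv* and by −0.42 in *Fibcd1*, and by 0.09 in *Cd200*, 0.06 in *Inpp5j*, 0.33 in *Ppp4r4* and 0.51 in *Pdp1*. Among the *Htt*+/+ mice of 27 May, 1 KO library differed from 3 WT libraries by −0.13 in *Ptprv*, −0.36 in *Fibcd1*, −0.55 in *Pdp1*, −0.09 in *Ppp4r4*, 0.07 in *Cd200* and 0.27 in *Inpp5j*. In this small set *Ptprv*, *Fibcd1* and *Cd200* kept on both days the direction they had over all mice, while *Inpp5j* had the opposite sign on both. On 25 May the KO mouse was of the A series with 118 repeats. The WT carriers of that day were of the V and Z series, with 131 and 113. On 27 May the KO mouse was of the Z series and the WT mice of the V series. Within these days *Hdac2* genotype and series therefore cannot be told apart. Extraction date was also used as a term in place of the surrogate variables. The fitted value for *Hdac2* loss in *Htt* Q111/+ mice was then −0.16 (SE 0.31) in *Ptprv*, −0.18 (SE 0.15) in *Fibcd1* and −0.03 (SE 0.086) in *Cd200*. It was 0.19 (SE 0.20) in *Pdp1*, 0.23 (SE 0.17) in *Inpp5j* and 0.23 (SE 0.076) in *Ppp4r4*. For these effects date and *Hdac2* genotype can be told apart from those 2 days alone.

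The effect of the allele can be read within every day. In *Hdac2* WT mice of 24, 25 and 27 May the difference with the allele was −0.19, −0.93 and −1.02 in *Ptprv*, −0.54, −0.57 and −0.47 in *Pdp1*, and −0.42, −0.20 and −0.30 in *Fibcd1*. It was −0.25, −0.66 and −0.47 in *Inpp5j*, −0.20, −0.42 and −0.46 in *Ppp4r4*, and 0.24, 0.36 and 0.37 in *Cd200*. Each of these 3 days holds 2 or 3 mice a group, and the direction is the one for which the genes were chosen. The WT mice of 24 May were of the A and Z series, with 110 and 111 repeats in the carriers. Those of 27 May were of the V series, with 137 and 140 repeats, and those of 25 May of the V and Z series. Differences between days therefore cannot be told apart from those of series and repeat length. Among the carriers of 25 May is the library with many cortical or hippocampal marker counts. It had 20.2 CPM of *Fibcd1*, where the other carrier of that day had 13.6. In *Hdac2* KO mice the days were 26 May (3 mice with and 3 without the allele), 31 May (2 and 4) and 3 June (5 and 1). Those of 26 May were all of the V series and those of 31 May all of the Z series, while 3 June mixed the series. *Fibcd1* differed with the allele on these days by 0.15, 0.03 and 0.21, and *Ptprv* by −0.36, 0.01 and −0.06, the last of each against 1 mouse. *Pdp1* differed by −0.15, −0.07 and −0.27, *Ppp4r4* by −0.25, −0.05 and −0.18, *Inpp5j* by −0.31, −0.04 and −0.01, and *Cd200* by 0.14, 0.02 and 0.07. For *Pdp1* these are below 0 on each day, while the plain difference over all days is 0.03.

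Repeat length was compared within the groups, which the choice of the genes did not use. Carriers of the V series (n = 8) had 131 to 144 repeats and those of the A and Z series (n = 10) had 110 to 118, and mice of the same series without the allele served as controls. The extra effect of the allele with long repeats was −0.39 (SE 0.20, adjusted p = 0.636) in *Ptprv*, −0.27 (SE 0.11, adjusted p = 0.516) in *Inpp5j*, −0.15 (SE 0.059, adjusted p = 0.510) in *Ppp4r4*, −0.21 (SE 0.16, adjusted p = 0.769) in *Pdp1*, 0.16 (SE 0.11, adjusted p = 0.745) in *Fibcd1* and 0.05 (SE 0.058, adjusted p = 0.876) in *Cd200*, by the quasi-likelihood test of edgeR, adjusted after Benjamini-Hochberg over 17346 genes. It passed in 0 of 6, and 0.098% of all genes passed. At an unadjusted p under 0.05 there were 2 of 6, *Inpp5j* and *Ppp4r4*, beside 1402 of all 17346 genes, and DESeq2 called 0 of 6. The intervals leave room for an effect, with −0.81 to 0.02 in *Ptprv* and −0.50 to −0.05 in *Inpp5j*. Among carriers alone, where a difference between the series is not taken out, 5 of 6 passed while 4.76% of all genes did, and *Fibcd1* did not.

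A difference between the series was present without the allele, and was looked at after these values were seen. Between V and other mice that lack the allele, *Cd200* was 0.16 higher (SE 0.043, adjusted p = 0.0449 by the same edgeR test) and *Fibcd1* differed by −0.29 (SE 0.082, adjusted p = 0.0483). These 2 of 6 passed, and 2.4% of all genes did. *Ppp4r4* had −0.13 (SE 0.044, adjusted p = 0.103), *Pdp1* −0.33 (SE 0.12, adjusted p = 0.141), *Ptprv* −0.31 (SE 0.15, adjusted p = 0.297) and *Inpp5j* −0.09 (SE 0.084, adjusted p = 0.658). Both calls lie close to the threshold, and that of *Cd200* was lost in 19 and that of *Fibcd1* in 24 of the 35 fits that each left out 1 library. Their part in the effects of genotype can be read from the levels within series.

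In *Fibcd1* the series lay further apart in WT mice than in KO mice. Without the allele, *Hdac2* WT mice of the A and Z series had 24.7 to 26.0 CPM (n = 3) and those of the V series 16.6 to 18.6 (n = 5). With the allele the values were 15.8 to 21.5 (n = 4) and 13.6 to 15.01 (n = 3). In KO mice they were 10.1 to 14.3 (n = 6) against 9.78 to 11.6 (n = 3) without the allele, and 11.1 to 12.4 (n = 6) against 9.84 to 14.6 (n = 5) with it. The series did not overlap in either WT group and overlapped in both KO groups; whether the difference itself depends on *Hdac2* was not tested. Within each series *Fibcd1* was lower with *Hdac2* loss, by −1.09 and −0.69 in log2 CPM in the A and Z series and by −0.73 and −0.31 in the V series, in *Htt*+/+ and *Htt* Q111/+ mice.

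In *Ptprv* the series parted the *Hdac2* WT carriers, as they also did in *Fibcd1*, *Inpp5j* and *Cd200*. *Htt* Q111/+ *Hdac2* WT mice of the V series had 19.0 to 21.0 CPM (n = 3) and those of the A and Z series 27.2 to 44.1 (n = 4), with no overlap, while without the allele the series had 33.7 to 49.2 (n = 5) and 36.7 to 50.8 (n = 3). In KO mice the series overlapped, with 8.24 to 16.8 (V, n = 5) and 14.1 to 26.3 (n = 6) beside the allele and means of 17.4 and 24.1 without it. *Hdac2* WT carriers of the V and of the other series had 47.7 to 58.3 and 67.8 to 79.7 CPM of *Inpp5j*. They had 71.3 to 76.2 and 60.7 to 71.2 of *Cd200*. Double mutants parted by series in *Inpp5j* (49.2 to 58.6 and 59.2 to 73.2) and *Ppp4r4* (78.4 to 87.9 and 93.6 to 104). Without the allele, *Cd200* and *Ppp4r4* parted by series in WT and in KO mice. For *Ptprv* the difference with the allele in WT mice was −1.03 in the V series and −0.39 in the others. *Inpp5j* had −0.62 and −0.31, *Ppp4r4* −0.41 and −0.28, *Pdp1* −0.60 and −0.46, *Cd200* 0.34 and 0.32, and *Fibcd1* −0.29 and −0.38. The other comparison that chose the genes, *Hdac2* loss in *Htt* Q111/+ mice, gave in the V and in the other series −0.68 and −0.78 in *Ptprv*, 0.04 and −0.08 in *Inpp5j*, −0.16 and −0.04 in *Pdp1*, and values within 0.09 of 0 in *Cd200* and *Ppp4r4*.

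Sex made no difference that passed. The female minus male difference within groups ran from −0.09 (SE 0.11) in *Ptprv* to 0.10 (SE 0.060) in *Fibcd1*, and 0 of 6 passed by edgeR's quasi-likelihood test (lowest adjusted p = 0.898), 0 at an unadjusted p under 0.05 (967 of all 17346 genes), and 0 by DESeq2, while 0.0749% of all genes passed. In *Htt* Q111/+ females, KO mice (n = 3) were above WT mice (n = 3) by 0.41 in *Pdp1* and 0.23 in *Ppp4r4*, and in males (n = 8 and 4) they were below by −0.34 and −0.12. That difference between the sexes was not tested. All 3 KO females are of the A and Z series, while 5 of the 8 KO males are of the V series, and 1 of the 3 WT females is the library with many cortical or hippocampal marker counts.

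Within groups many of the 6 genes varied together from mouse to mouse, *Pdp1* least with *Ptprv* and *Fibcd1*. After the group means were subtracted, Pearson's r over the 35 libraries was 0.73 between *Ptprv* and *Inpp5j* (Spearman's rho 0.73), 0.59 between *Ptprv* and *Ppp4r4* (rho 0.61), 0.13 between *Ptprv* and *Pdp1* (rho 0.21) and 0.14 between *Pdp1* and *Fibcd1* (rho 0.21), and the 10 pairs among the 5 genes that fell all had positive values. *Cd200* ran against each of them, from −0.77 with *Ptprv* (rho −0.78) to −0.35 with *Pdp1* (rho −0.37). Without the 2 libraries farthest from the median of *Ptprv*, r was 0.68 with *Inpp5j* and −0.75 with *Cd200*. Members of a pair are read from the same library, extraction day and ID series, and these values are a description.

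Within groups the 6 genes went to unlike degrees with marker genes of several cell types. The 6 astrocyte markers, all of them in the table and none at 0 in every library, summed to 1935 ± 135 CPM in the wild type (SD, n = 8), 1845 ± 158 (n = 7) in *Htt* Q111/+ *Hdac2* WT, 2044 ± 139 (n = 9) in *Htt*+/+ *Hdac2* KO and 1953 ± 146 (n = 11) in double mutants, with *Aldoc* the most abundant. Within groups their sum had r = 0.79 with *Ptprv* (rho 0.83) and −0.77 with *Cd200* (rho −0.78). *Pdp1* had r = 0.21 with it (rho 0.32). Between groups the sum was lower with the allele beside either *Hdac2* genotype and higher with *Hdac2* loss, within overlapping ranges. Of the 6, *Aqp4* was called with the allele in WT mice (−0.26, SE 0.050, adjusted p = 0.0122 by the edgeR test), where 0.403% of all genes were called. Sums of the 6 microglia markers, led by *Csf1r*, and of the 5 endothelial and mural markers, led by *Rgs5*, had r = 0.72 and 0.68 with *Ptprv* within groups (rho 0.74 and 0.69), and group means of 353 to 406 and 280 to 310 CPM. With the microglia sum *Ppp4r4* had r = 0.25 and *Pdp1* −0.09 (rho 0.26 and −0.01). The sum of 8 cortical or hippocampal projection neuron markers, led by *Wfs1*, ran the other way, with r = −0.39 in *Ptprv* and −0.52 in *Ppp4r4* (rho −0.48 and −0.53). In this sum *Wfs1* alone had group means of 98.4 to 109 CPM, and single libraries stood out with 255, 272 and 515 CPM. Whether it measures cortical content in a graded way was not tested. *Fibcd1* had r = 0.64 with the endothelial and mural sum and 0.61 with that of 6 interneuron markers, led by *Sst* (rho 0.65 and 0.62), and *Ppp4r4* had r = 0.44 with the astrocyte sum (rho 0.53). Group means of the interneuron and projection neuron sums were 287 to 299 and 122 to 198 CPM, with all genes of each list in the table and none at 0. Not every marker list is reported, so these need not be a gene's highest or lowest values over the lists. For *Pdp1* the highest value lay in a list not reported, above each value given for it here. The part of these cell types in the differences was not tested.

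MSN markers were lower with the allele in WT mice. All 10 were in the table and none was at 0, *Penk* was the most abundant, and their sum was 8038 to 9171 CPM in the wild type (median 8705), 5858 to 7915 (median 6276) in *Htt* Q111/+ *Hdac2* WT, 7550 to 8948 (median 8498) in *Htt*+/+ *Hdac2* KO and 6633 to 8285 (median 7411) in double mutants. WT mice with and without the allele did not overlap, while KO mice with and without it did. The *Htt* Q111/+ *Hdac2* WT group holds 1 library (a Z series female of 25 May) that stood apart once the values were seen, with 515 CPM of cortical or hippocampal markers against 93.8 to 192 in the other 6. That library also had 5869 CPM of MSN markers and 79.2 CPM of *Ppp4r4*, where the other A and Z mice of the group had 103 to 107 of *Ppp4r4*. Among *Htt*+/+ *Hdac2* KO mice, replicates 2 and 6 had 255 and 272 CPM of cortical or hippocampal markers, beside 110 to 160 in the rest. In WT mice 5 of 10 fell with the allele, where 0.403% of all genes were called, with *Ppp1r1b*, the gene of DARPP-32, at −0.28 (SE 0.052, adjusted p = 0.0121 by edgeR's quasi-likelihood test) and the receptor gene *Drd1a* at −0.22 (SE 0.049, adjusted p = 0.0439). The number of genes called in that comparison is unsteady, with 69 in all libraries and 14 to 187 when 1 library was left out. With *Hdac2* loss in *Htt*+/+ mice 2 of 10 rose and 2 fell, where 17.8% of all genes were called, and *Ppp1r1b* rose by 0.24 (SE 0.056, adjusted p = 0.00242). The Cre transgene, which only KO mice carry, holds parts of *Ppp1r1b* itself, so RNA of the transgene and of the gene cannot be told apart in this value. With *Hdac2* loss in *Htt* Q111/+ mice 2 of 10 rose, where 16.5% of all genes were called, *Ppp1r1b* by 0.31 (SE 0.050, adjusted p = 3.48e-05 by the edgeR test) and *Tac1* by 0.29 (SE 0.044, adjusted p = 1.52e-05). With the allele in KO mice edgeR called 0 of 10, where it called 1 of 17110 genes, while 7 of 10 had an unadjusted p under 0.05 (1287 of 17110 genes) and DESeq2 called 2 of 10 (42 genes in all). In these bulk samples fewer MSNs and less RNA per MSN cannot be told apart. Within groups *Ppp4r4* had r = 0.76 with the sum of the MSN markers (rho 0.68), *Ptprv* 0.64 (rho 0.71) and *Fibcd1* 0.12 (rho 0.11).

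Other members of the same families did not move as a block. Among the other 19 receptor-type tyrosine phosphatase genes tested, *Hdac2* loss raised 5 in *Htt*+/+ mice (17.8% of all genes called) and, among *Htt* Q111/+ mice, 3 (16.5% of all genes called), and 2 rose with the allele in WT mice (0.403% of all genes called). The last were *Ptpro* (0.18, SE 0.040, adjusted p = 0.0370 by edgeR's quasi-likelihood test) and *Ptprh* (0.55, SE 0.11, adjusted p = 0.0177), and both rose with *Hdac2* loss too, *Ptpro* by 0.63 (SE 0.042, adjusted p = 7.16e-12) and *Ptprh* by 0.92 (SE 0.12, adjusted p = 1.10e-06) in *Htt*+/+ mice. Hence 2 relatives of *Ptprv* went up in the comparisons in which it went down. The median log2 fold change of the 19 was 0.01 with *Hdac2* loss in *Htt*+/+ mice, against 0.00 over all genes.

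Of the other 9 inositol polyphosphate 5-phosphatase genes, *Synj2* (0.26, SE 0.055, adjusted p = 9.22e-04 by the edgeR test) and *Inpp5d* (0.23, SE 0.050, adjusted p = 0.00119) rose with *Hdac2* loss in *Htt*+/+ mice, opposite to *Inpp5j*. All genes were called at 17.8% in that comparison and at 16.5% with *Hdac2* loss in *Htt* Q111/+ mice, and the counts in these lists rest on 1 to 3 genes each and are a description. In *Htt* Q111/+ mice 2 of 9 rose and 1, *Synj1*, fell by 0.09 (SE 0.029, adjusted p = 0.0255). Among the other 5 protein phosphatase 4 subunits *Ppp4r1* rose in that comparison (0.10, SE 0.036, adjusted p = 0.0399). Of the other 11 genes of the pyruvate dehydrogenase complex and its kinases and phosphatases, *Pdpr*, which encodes the regulatory subunit of the same phosphatase as *Pdp1*, fell with *Hdac2* loss in *Htt* Q111/+ mice (−0.21, SE 0.053, adjusted p = 0.00646).

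Among 7 other ligand and receptor genes between neurons and microglia tested in *Htt* Q111/+ mice, 2 fell with *Hdac2* loss, where 16.5% of all genes were called. They were *Cx3cl1*, a chemokine of neurons read by microglia (−0.23, SE 0.052, adjusted p = 0.00158 by the edgeR test), and *Sirpa*, the receptor of CD47 (−0.15, SE 0.032, adjusted p = 9.64e-04). *Cx3cl1* also fell in *Htt*+/+ mice (−0.28, SE 0.058, adjusted p = 8.46e-04), so the neuronal ligands *Cd200* and *Cx3cl1* went opposite ways with *Hdac2* loss. Among 14 other genes with a fibrinogen C-terminal domain, *Angptl6* fell in both, and in *Htt*+/+ mice it was the 1 of 14 called, where 17.8% of all genes were called (−0.35, SE 0.083, adjusted p = 0.00285 and −0.37, SE 0.073, adjusted p = 4.45e-04). In *Htt* Q111/+ mice *Tnr*, a matrix protein of perineuronal nets, fell too (−0.19, SE 0.049, adjusted p = 0.00813), and *Mfap4* rose by 1.05 (SE 0.35, adjusted p = 0.0351).

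By position, 4 of 12 nearest neighbours of the 6 genes passed with *Hdac2* loss in *Htt*+/+ mice and all 4 fell, where 17.8% of all genes were called. Besides *Ptpn7* and *Selm* they were *Ifi27l2b* (−2.13, SE 0.35, adjusted p = 4.13e-05 by the edgeR test) and *Serpina9* (−0.45, SE 0.075, adjusted p = 5.23e-05), which lie 75.3 and 381 kb from *Ppp4r4*. Such a count over so few genes is a description.

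The genes with the most similar pattern over all 35 libraries were *Smarcd1* (r = 0.93 in log2 CPM), *Gsg1l* (0.93) and *Cntnap1* (0.92) for *Ptprv*, *Serpinb1b* (0.92), *Wnk4* (0.92) and *Myh7b* (0.91) for *Fibcd1*, and *Krt9* (0.91), *Rasgef1a* (0.90) and *Arpp19* (0.88) for *Ppp4r4*. For *Pdp1* they were *Htr1b* (0.91), *Ranbp2* (0.89) and *Ippk* (0.87), for *Inpp5j* *Gba2* (0.90), *Cacnb1* (0.90) and *Ppp1r16b* (0.89), and for *Cd200* *Ralyl* (0.84), *Sh3bgrl* (0.83) and *Wbp5* (0.83). With group means subtracted the names changed except for *Krt9*. *Pdp1* then went most closely with *Homer1* (0.91), *Baz1a* (0.88) and *Nptx2* (0.86), *Ptprv* with *Dlgap3* (0.89), *Epas1* (0.88) and *Ppp1r12c* (0.88), and *Ppp4r4* with *Krt9* (0.86), *Ddit4l* (0.85) and *Tcf7* (0.84). *Inpp5j* went with *Tfcp2l1* (0.87), *Tbc1d4* (0.86) and *Nfatc2* (0.85), *Cd200* with *Fam169a* (0.87), *Gpr85* (0.83) and *Atad1* (0.79), and *Fibcd1* with *Lcat* (0.78), *Ptgs1* (0.77) and *Ltc4s* (0.75). Libraries share their day and series in these values too.

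Promoter sequences from RefSeq (GRCm38.p6, 250 bases before to 50 after the start) were matched for 3 of the 6 genes, *Fibcd1*, *Ppp4r4* and *Cd200*, and are shown because they hold 2 genes that fell and the one that rose. Searched on both strands were GGGCGG (in 35.7% of 32851 promoters of this length), CCAAT (37.4%), TATAAA (13.6%), TGANTCA (7.81%), CACGTG (7.15%) and TGACGTCA (1.79%), and capitals mark each match. GGGCGG gave 9 matches in *Ppp4r4*, 2 in *Fibcd1* and 1 in *Cd200*, and the others were not found in these windows. *Fibcd1* (chr2:31845956-31846255, minus strand) and *Ppp4r4* (chr12:103532315-103532614, plus strand) are rich in G and C, at 74.3% and 79.7% against a median of 52.7%, with 46 and 44 CG pairs against a median of 7. *Cd200* (chr16:45409004-45409303, minus strand) has 45% and 8 CG pairs. *Cd200* is thus near the median in CG pairs (percentile 51.4) and below it in G and C (percentile 22.0), while the other 2 lie far above. *Ptprv*, *Inpp5j* and *Pdp1*, which also fell, were not matched, and a link of base composition with direction was not tested.
Fibcd1: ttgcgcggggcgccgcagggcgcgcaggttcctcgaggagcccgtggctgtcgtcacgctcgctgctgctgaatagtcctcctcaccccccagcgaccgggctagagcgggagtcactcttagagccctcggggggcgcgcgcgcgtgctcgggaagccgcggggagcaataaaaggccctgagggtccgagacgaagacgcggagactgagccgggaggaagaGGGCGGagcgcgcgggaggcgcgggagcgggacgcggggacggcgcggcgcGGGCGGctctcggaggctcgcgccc
Ppp4r4: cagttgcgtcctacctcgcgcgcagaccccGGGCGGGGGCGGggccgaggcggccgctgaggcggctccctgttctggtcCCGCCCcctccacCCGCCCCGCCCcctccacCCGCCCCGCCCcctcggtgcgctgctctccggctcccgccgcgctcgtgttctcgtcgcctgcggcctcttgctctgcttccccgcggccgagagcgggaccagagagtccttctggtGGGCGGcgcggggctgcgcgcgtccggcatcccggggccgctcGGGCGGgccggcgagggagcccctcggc
Cd200: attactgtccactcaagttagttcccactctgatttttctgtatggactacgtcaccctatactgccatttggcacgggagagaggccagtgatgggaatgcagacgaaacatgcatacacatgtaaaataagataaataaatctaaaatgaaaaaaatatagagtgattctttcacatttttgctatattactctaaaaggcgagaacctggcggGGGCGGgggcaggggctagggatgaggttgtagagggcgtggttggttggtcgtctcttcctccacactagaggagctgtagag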

How the data were processed

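Counts per gene were used as deposited by the authors, who aligned reads to GRCm38 with GSNAP. Spike-ins (92), genes of up to 250 nt (6152) and 2 mitochondrial rRNA genes were left out, and genes had to reach 6 counts throughout the libraries of 1 group, which left 17346 over the 4 groups. TMM factors scaled the libraries, svaseq (sva 3.50.0) gave 9 surrogate variables, and tests were edgeR 4.0.16 quasi-likelihood tests with Benjamini-Hochberg adjustment, with a gene called at an adjusted p under 0.05 (R 4.3.3, limma 3.58.1). DESeq2 1.42.0 was the alternative. CPM was taken over the kept genes with TMM-scaled library sizes, and log2 CPM after 0.05 was added. Descriptions used Python 3.11.15. The members and lists were chosen with earlier results of these data known. List genes are named where they were called, up to 5 a list, and neighbours and genes of like pattern by rank. Among 140 pairs of libraries within groups none was a duplicate (lowest chi-square per degree of freedom 7.27, median 33.1). Of 9 marker lists, 3 are not reported here.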

Additional observations from a re-analysis of the deposited data

Results flagged for a closer look

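The effect of the *Htt* Q111 allele on *Fibcd1* differed between *Hdac2* KO and *Hdac2* WT mice by 0.43 in log2 fold change. This difference contains both comparisons that chose the gene, so it is a description and its p value is not given. The quasi-likelihood test of edgeR called it in *Fibcd1*, as 1 of 17346 genes (0.00577%), and nothing is read from that call. The call was lost in 17 of 35 fits that each left out 1 library. It was also lost with ID series, extraction date, sex or a replicate block in place of the surrogate variables, with groups only, in males only and without the count filter. Single libraries far from their group were looked for in 18 combinations of gene and group, where chance alone would name about 1 in 20, and 0 were found; the group of 11 was not looked at.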

How the results depend on the processing

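Of 312 planned values for the 4 genotype comparisons of the 6 genes, 10 changed sign and 63 more moved by over 1.5 times, although 295 stayed within 1 SD between mice. Of 840 with 1 library left out, 1 changed sign (*Pdp1*, the allele in KO mice, 0.029) and 29 moved by over 1.5 times. Left-out libraries brought *Hdac2* loss in *Htt* Q111/+ mice to −0.11 in *Pdp1* and −0.059 in *Inpp5j*. They moved the effect of the allele on *Ptprv* in KO mice to values between −0.16 and −0.011. The interaction kept its sign in 72 settings and 210 leave-outs, and moved by over 1.5 times in 18 and 1 of them, to 0.015 in *Ptprv* with the replicate block and 0.034 in *Ppp4r4* with 1 library left out. Among the values for *Hdac2* loss, extraction date in place of surrogate variables gave the largest shifts. Whether date itself or the few days shared by both *Hdac2* genotypes caused them was not tested. With it, *Hdac2* loss in *Htt*+/+ mice gave 0.19 in *Cd200*, −0.56 in *Fibcd1*, −0.016 in *Inpp5j*, −0.59 in *Ptprv* and, with the sign changed, 0.018 in *Ppp4r4*. In *Htt* Q111/+ mice it gave −0.18 in *Fibcd1*, −0.16 in *Ptprv* and, with the sign changed, 0.23 in *Inpp5j*, 0.23 in *Ppp4r4*, −0.028 in *Cd200* and 0.19 in *Pdp1*. The other 5 sign changes were of *Pdp1* for the allele in KO mice (0.023 to 0.074). With ID series as a term, the allele gave 0.34 in *Cd200* in WT mice. Within the V series (an added setting; over both series 3 of 48 values changed sign) it gave 0.34 in *Cd200*, −0.62 in *Inpp5j*, −0.41 in *Ppp4r4* and −1.03 in *Ptprv* in WT mice and −0.34 in *Inpp5j* in KO mice, and *Hdac2* loss gave −0.73 and −0.31 in *Fibcd1*. *Ptprv* with *Hdac2* loss in *Htt*+/+ mice had −0.93 within the A and Z series, −0.98 with groups only, −0.98 with only the 2 groups, −0.98 with sex, and −0.99 with a block by replicate number, and with that block the allele gave −0.50 in KO mice. Replicate numbers did not pair libraries: correlations of 45 same-number pairs ran from −0.21 to 0.30 (median 0.046), and 15 were over 0.1.

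With carriers only, the long-repeat difference was 0.23 in *Cd200*, −0.36 in *Inpp5j*, −0.51 in *Pdp1*, −0.29 in *Ppp4r4* and −0.74 in *Ptprv*, all called by edgeR, and −0.16 with the sign changed in *Fibcd1*. With the replicate block added, the sex difference of *Pdp1* turned to 0.074, and the series difference lost its call in *Cd200* and *Fibcd1* and gained one in *Pdp1* (−0.38). Without the count filter that of *Cd200* lost its call.

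Genes called with *Hdac2* loss fell from 3056 to 822 with date and 1970 in males in *Htt*+/+, and from 2841 to 331 with date, 1720 with only 2 groups, 1854 with the block and 1711 in males in *Htt* Q111/+ mice. For the allele in WT mice they went from 69 to 837 with series, 419 with date, 152 by DESeq2, 34 without the filter, 13 with the block, 10 in males and 1 with only 2 groups, and in KO mice from 1 to 42 by DESeq2, 23 with the block, 4 without the filter and 0 with date or in males. Double mutant against wild type went from 3627 to 798 with date and 2263 in males. The interaction went from 1 to 7 with series (*Fibcd1* not among them), 3 by DESeq2 and 0 with date, block, sex, groups only, no filter or males, long repeats from 17 to 50 by DESeq2 and 825 in carriers, sex from 13 to 8 with the block, and the series difference from 416 to 135 with the block.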
